A study of Homo sapiens with 4 samples.

Results

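The 4 human HOX gene clusters were examined for acetylation of histone H3 at lysine 9 (H3K9ac), a mark found at active promoters, in T98G, an established glioblastoma cell line. A called H3K9ac region counted as a member when it overlapped one of 4 windows on the hg19 genome build by at least 1 bp. The windows were chosen to enclose the clusters. HOXA lay at chr7:27125000-27255000, HOXB at chr17:46600000-46815000, HOXC at chr12:54325000-54455000 and HOXD at chr2:176945000-177060000. They hold 48 of the 26828 regions of the control library and 62 of the 39303 regions of the library from cells with an shRNA against RBBP4.

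The study transduced T98G cells at passage 4 with lentivirus carrying a non-targeting shRNA (shNT) or an RBBP4 shRNA (shRBBP4), and ran H3K9ac ChIP-seq with 1 library per shRNA. An input library of each kind was not analysed here. Both groups are the same line, so they share its genome and its history in culture, and the level of RBBP4 left after the shRNA was not analysed here. With 1 library per group, no difference between shNT and shRBBP4 has a replicate check, and the sequencing depth of both libraries is unknown.

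HOX genes encode homeodomain transcription factors that set identity along the body axis, and their order along each cluster follows the order in which they are used in the embryo. Outside the tissues that use them the clusters are a classic site of Polycomb repression, while active stretches carry acetylated histones. RBBP4 binds histones and is a subunit of Polycomb repressive complex 2 and of the NuRD and SIN3 deacetylase complexes. Forebrain-derived cells normally keep HOX genes silent, and their expression in glioblastoma is well known.

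The windows correspond to 38 listed genes, 10 in HOXA, 10 in HOXB, 9 in HOXC and 9 in HOXD. All 38 were found in the RefSeq gene table, which is on GRCh38 and was used for gene order alone. By rising coordinate HOXA runs from HOXA2 to HOXA13 and HOXB from HOXB1, which patterns the hindbrain, to HOXB13, known from the prostate. HOXC runs the other way, from HOXC13, a gene of hair and nail, to HOXC4, and HOXD from HOXD13, a gene of digit formation, to HOXD1. Gene positions on hg19 were not used here, so regions are described by distance from the low-coordinate edge of their window, and no region is assigned to a gene.

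Promoter sequence from RefSeq (GRCh38.p14, 250 bases before to 50 after the transcript start) was present for 20 of the 38 genes, in 27 entries that include several starts for HOXA3 and HOXA10. Paralogue group 4 is the only group with an entry from 3 clusters, and its promoters are shown as examples of CpG content. It has a single gene per cluster and none from HOXB, so it cannot compare clusters with few and with many H3K9ac regions. Each CG dinucleotide is in capitals.
HOXA4, chr7:27130708-27131007, minus strand: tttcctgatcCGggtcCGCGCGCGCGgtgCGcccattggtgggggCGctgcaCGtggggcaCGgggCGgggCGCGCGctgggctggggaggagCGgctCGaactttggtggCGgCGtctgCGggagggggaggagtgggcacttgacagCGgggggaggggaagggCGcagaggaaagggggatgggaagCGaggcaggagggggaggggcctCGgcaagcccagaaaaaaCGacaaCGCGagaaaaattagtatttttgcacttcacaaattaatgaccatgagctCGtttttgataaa
HOXC4, chr12:54016638-54016937, plus strand: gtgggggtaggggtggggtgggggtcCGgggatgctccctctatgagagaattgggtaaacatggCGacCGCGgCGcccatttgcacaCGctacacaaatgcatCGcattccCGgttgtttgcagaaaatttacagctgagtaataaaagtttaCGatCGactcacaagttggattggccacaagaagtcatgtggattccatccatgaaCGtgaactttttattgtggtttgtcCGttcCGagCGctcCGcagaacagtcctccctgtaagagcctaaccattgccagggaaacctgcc
HOXD4, chr2:176151300-176151599, plus strand: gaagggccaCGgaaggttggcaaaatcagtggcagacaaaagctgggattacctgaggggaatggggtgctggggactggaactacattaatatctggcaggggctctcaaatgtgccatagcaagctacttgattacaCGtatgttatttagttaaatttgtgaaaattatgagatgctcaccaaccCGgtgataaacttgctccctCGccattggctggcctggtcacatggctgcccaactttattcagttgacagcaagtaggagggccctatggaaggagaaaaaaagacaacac
HOXA4 had 27 CG dinucleotides, HOXC4 had 15 and HOXD4 had 4. HOXC5 is listed with the same promoter sequence as HOXC4. The counts ran from 4 in HOXD4 to 36 in HOXD1 within HOXD, and from 0 at a HOXA3 start to 44 in HOXA13 within HOXA. The median was 21.5 over 16 HOXA entries and 24.5 over 8 HOXD entries, against 14 over all 35116 promoters in the table. The 16 HOXA entries come from 9 genes and the 8 HOXD entries from 8, so the medians do not weigh genes alike. HOXB had 1 entry and HOXC 2, which is too few to describe. These sequences carry no measurement of their own, because promoters were not placed on the region lists.

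H3K9ac regions were concentrated in the HOXC and HOXD windows in both libraries, and HOXA and HOXB held few. HOXC had 21 regions in shNT and 33 in shRBBP4. HOXD had 19 and 23. HOXB had 4 in each library, in the longest of the windows, and HOXA had 4 and 2. Together HOXC and HOXD held 40 of the 48 shNT regions (83.3%) and 56 of the 62 shRBBP4 regions (90.3%). Per length they had 16.3 regions per 100 kb in shNT against 2.32 in HOXA and HOXB, a 7.04-fold difference. In shRBBP4 the densities were 22.9 and 1.74 per 100 kb, a 13.1-fold difference.

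**Figure D1:**
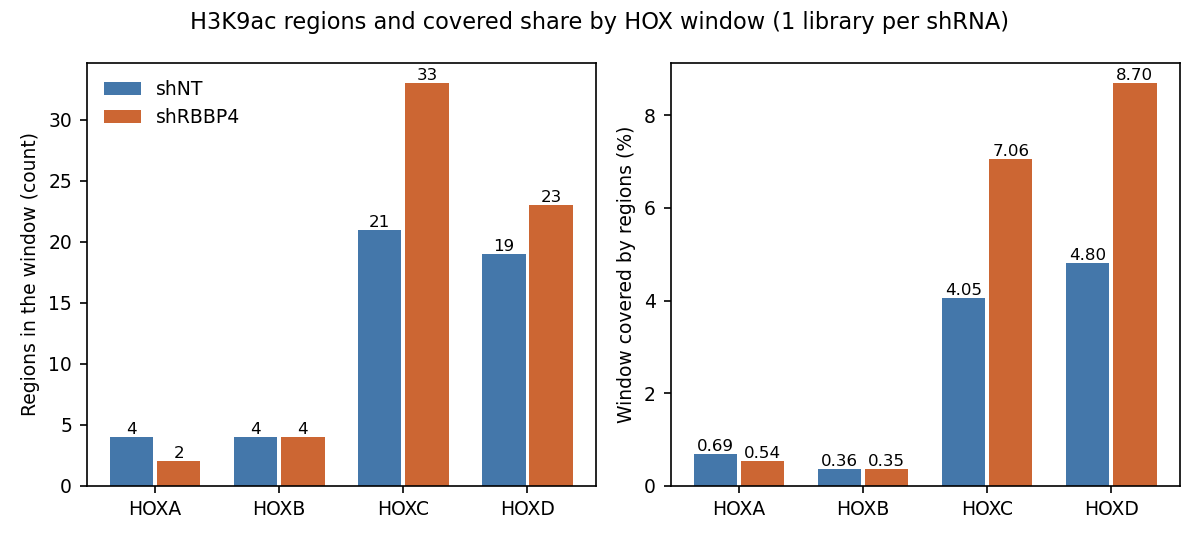
Number of H3K9ac regions (left) and percent of the window covered by regions (right) in each HOX window, blue for shNT and orange for shRBBP4, 1 library each. HOXC reaches 21 and 33 regions and HOXD 19 and 23, while HOXA and HOXB have at most 4.

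HOXC and HOXD also led by covered share, although HOXD then stood above HOXC and HOXA above HOXB. Regions covered 4.80% of the HOXD window in shNT and 8.70% in shRBBP4, and 4.05% and 7.06% of HOXC. In HOXA they covered 0.694% and 0.542%, and in HOXB 0.36% and 0.349%. Over the span that the lists reach on all chromosomes the covered share was 0.269% in shNT and 0.407% in shRBBP4. HOXC and HOXD stood far above this level and HOXA and HOXB much closer to it, with HOXB in shRBBP4 below it. By covered share, HOXC stood above 99.4% of the 29279 tiles of 100 kb along the genome in shNT and 99.8% in shRBBP4, and HOXD above 99.7% and 99.9%. HOXA stood above 86.8% and 79.8%, and HOXB above 81.7% and 76.6%. By region number, each HOXC and HOXD value stood above at least 99.7% of tiles, HOXA above 90.2% and 76.1%, and HOXB above 81.2% and 76.1%. These tiles place the windows and test nothing, and 74.9% of them in shNT and 69.3% in shRBBP4 held no region at all.

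Fewer regions lay beside HOXC and HOXD than inside them. Regions are given by score percentile, the rank in the library's own list with tied scores at their middle rank. The lists differ in length, so a higher percentile in shRBBP4 does not by itself show a change. The 130 kb below the HOXC window held 0 shNT regions and 1 shRBBP4 region, at percentile 8.79 of its list, and the 130 kb above it held 1 and 1. Beside HOXD, the lower 115 kb held 2 and 7 regions and the upper 115 kb held 1 and 2. Some of these ranked high, with the highest in shNT at percentile 94.0 on the lower and 94.6 on the upper side, and in shRBBP4 at 94.5 and 68.5. Both flanks of HOXA had 0 regions in each library. HOXB differed from the other 3 windows, since the 215 kb above it held 14 regions in shNT and 15 in shRBBP4, more than the window itself. Those 215 kb reached percentile 97.7 in shNT and 96.3 in shRBBP4. The 215 kb below HOXB held 1 region in shNT and 3 in shRBBP4, reaching percentiles 67.8 and 98.1. In shRBBP4 these 3 regions covered 0.959 kb, against 0.751 kb in the window.

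The HOXD regions lay in 5 separate stretches, made by joining regions of both libraries across gaps of up to 1 kb, and all lay in the lower 60.2 kb of the window. The stretch at chr2:176961014-176962715, 16.0 to 17.7 kb from the window edge, held the strongest HOX region of each library. In shNT this was chr2:176961039-176962156, a region of 1118 bp at percentile 98.5. In shRBBP4 it was chr2:176961014-176962385, of 1372 bp at percentile 99.3. These were also the widest of all 48 and 62 regions, and the shRBBP4 region covered 100% of the shNT one. The following stretch, at 23.2 to 26.4 kb, had 660 bp called in shNT and 2737 bp in shRBBP4.

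In that stretch of HOXD the shNT library had 3 regions and the shRBBP4 library 5. The leading pair overlapped, with an shNT region of 406 bp at percentile 86.0 inside an shRBBP4 region of 820 bp at percentile 94.7. Beside it, chr2:176968249-176968659 was the highest-ranking HOX region that overlapped none of the other library. It stood at percentile 90.4 in shRBBP4, and an shNT region lay within 1 kb of it. The shRBBP4 regions of this stretch thus reached further to the low-coordinate side than those of shNT.

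The other large HOXD stretches were found in both libraries. At 49.0 to 52.9 kb there were 6 shNT regions covering 1473 bp and 7 shRBBP4 regions covering 2001 bp, with highest percentiles of 66.4 and 68.3. At 55.5 to 60.2 kb there were 8 regions in each library, covering 2129 bp in shNT and 3440 bp in shRBBP4. The second-highest HOXD regions of both libraries lay here. In shNT it was chr2:177000934-177001648 at percentile 87.8, and in shRBBP4 chr2:177003599-177003981 at percentile 95.6. A single shRBBP4 region of 326 bp at chr2:176958256-176958581, percentile 75, had no shNT region within 1 kb.

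No HOXD region of either library lay in the upper part of the window. The empty stretch measured 55.1 kb in shNT and 54.8 kb in shRBBP4 and ran to the window end, the side on which the gene table lists HOXD1 last. The HOXD regions of both libraries therefore began on the side of HOXD13 and stopped at nearly the same place, with the last base called 59.9 kb from the edge in shNT and 60.2 kb in shRBBP4.

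**Figure D2:**
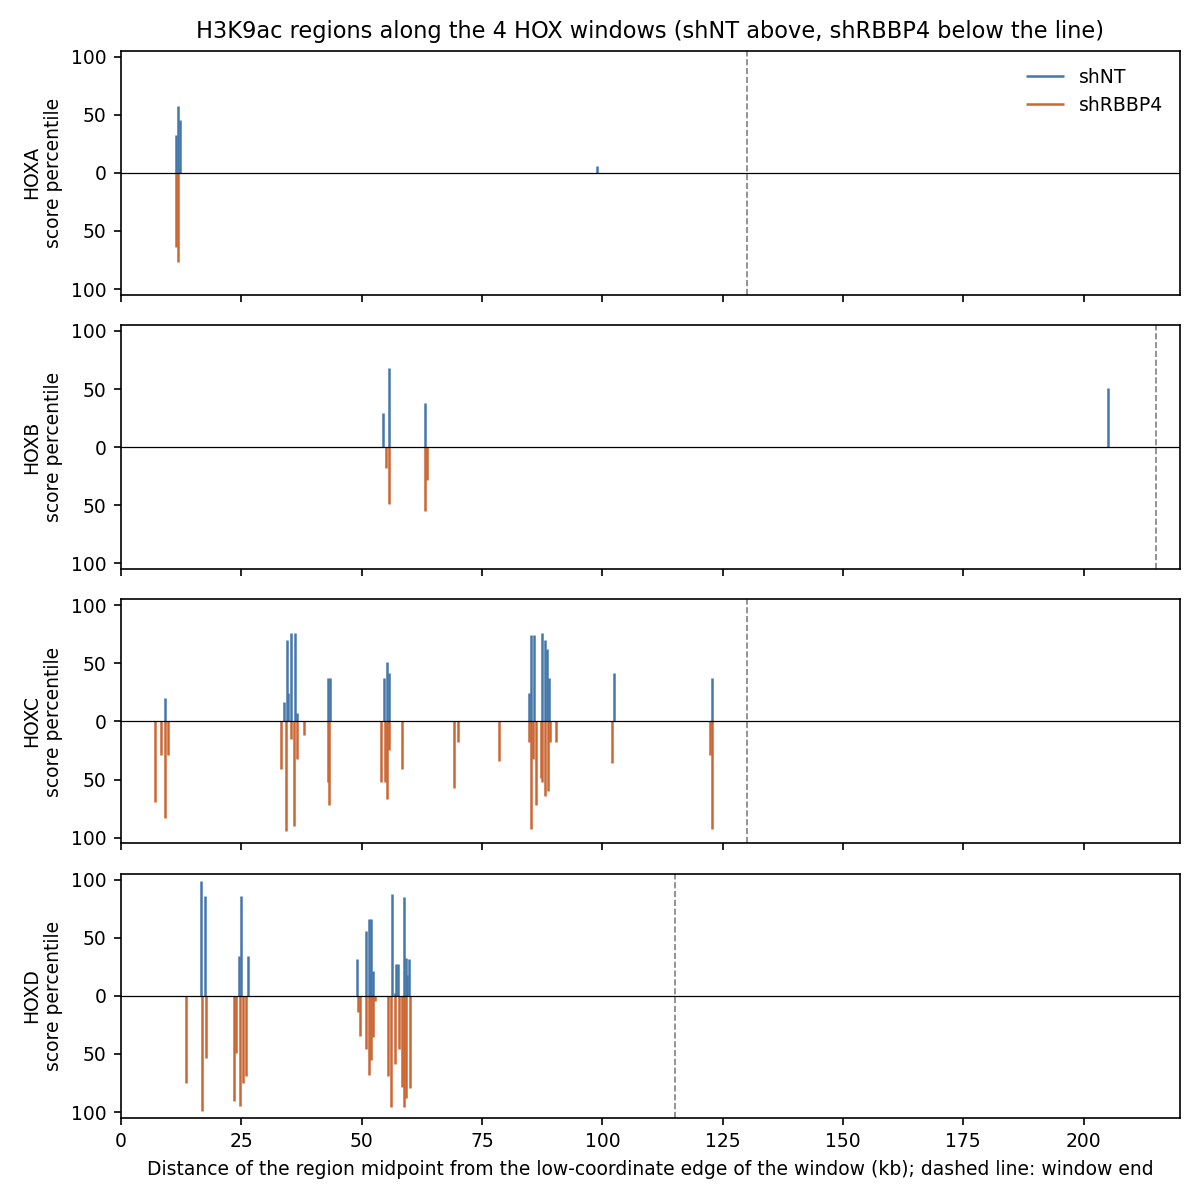
Position and rank of every H3K9ac region in the 4 HOX windows. The horizontal axis is the distance of the region midpoint from the low-coordinate window edge in kb, and line height is the score percentile in the region's own list, upward for shNT and downward for shRBBP4. HOXC regions are spread over the window, HOXD regions end near 60.2 kb, and HOXA and HOXB hold a few isolated lines.

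The HOXC regions were spread more widely than those of HOXD, over 11 stretches between 6.98 and 123.0 kb from the window edge. Of the 10 equal parts of the HOXC window, 7 held covered bases in shNT and 8 in shRBBP4, against 4 and 4 in HOXD. The largest HOXC stretch, chr12:54409620-54415399, spanned 5.78 kb and held 7 shNT and 10 shRBBP4 regions, covering 1358 and 2490 bp. Its highest percentile was 76.2 in shNT and 92.1 in shRBBP4. The next, chr12:54358120-54361551, held 6 and 5 regions covering 1780 and 2441 bp, with highest percentiles of 76.2 and 93.9. These 2 stretches held 13 of the 21 shNT regions and 15 of the 33 shRBBP4 regions of HOXC.

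The highest-ranking HOXC regions stood at different ranks in the libraries. In shNT, 3 regions tied at percentile 76.2, among them chr12:54360731-54361348, the widest at 618 bp, and chr12:54360115-54360580. In shRBBP4 the highest was chr12:54358773-54359694, 922 bp wide at percentile 93.9, which overlapped 3 shNT regions of which the best stood at percentile 70.3. The shRBBP4 region second in rank, chr12:54447623-54447804, stood at percentile 92.8 on the side of HOXC4. The shNT region that it overlapped stood at percentile 37.7. At the opposite end, on the side of HOXC13, the pair at chr12:54333755-54334342 in shRBBP4 and chr12:54333831-54334409 in shNT stood at percentiles 83.2 and 19.9.

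Of the 11 HOXC stretches, 4 were in shRBBP4 alone (36.4%) and 0 in shNT alone. Over the whole lists 35% of stretches were in shRBBP4 alone and 7.26% in shNT alone, so the shRBBP4 share in HOXC was at the background. The 4 held 5 regions and began at 37.8, 58.2, 68.9 and 78.3 kb from the window edge. Their highest percentiles were 11.5, 40.5, 57.1 and 34.1, so they stood in the lower and middle part of the shRBBP4 list. In shNT the longest empty stretch of HOXC, 28.9 kb from 55.7 to 84.6 kb, contained 3 of these 4. The highest-ranking HOXC region with no overlap was chr12:54411038-54411479 in shRBBP4, at percentile 71.8, and it lay inside the largest stretch.

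HOXB held 3 stretches, of which 2 were found in both libraries. The first was at chr17:46654249-46655739. In it the highest region stood at percentile 67.8 in shNT (chr17:46655584-46655739) and 48.9 in shRBBP4 (chr17:46655589-46655704). The second was at chr17:46663026-46663555, where the order was the other way, with percentile 37.7 in shNT and 55.3 in shRBBP4 and 289 bp called in both. The third was an shNT region of 153 bp, chr17:46804917-46805069, at percentile 51.2, on the side of HOXB13. No shRBBP4 region lay within 1 kb of it. The rest of HOXB was empty, with the longest such stretch 141.6 kb in shNT and 151.4 kb in shRBBP4.

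HOXA held 1 stretch in both libraries, at chr7:27136193-27137332, 11.2 to 12.3 kb from the window edge. It had 3 shNT regions of 330, 186 and 252 bp at percentiles 32.2, 57.2 and 45.0. The 2 shRBBP4 regions measured 264 and 440 bp and stood at percentiles 63.9 and 76.5. The only other HOXA region was chr7:27223911-27224044 in shNT, 134 bp wide at percentile 6.08. The gene table lists HOXA9 and HOXA10, factors known from blood and leukaemia, and HOXA13 last toward the upper end of the window. Above this stretch, the rest of the window held 0 regions in shRBBP4 and 1 region in shNT.

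No difference in the number of HOX regions between the libraries was larger than counting error. Over the 4 windows the ratio of shRBBP4 to shNT regions was 1.29 (95% interval 0.872 to 1.92, counting error only), which includes the ratio of 1.46 over the whole lists. In lists of equal length, with the shRBBP4 list reduced to its highest-scoring regions, it was 1, with 48 regions each, and among joined regions 0.905. HOXC had a ratio of 1.57 (0.882 to 2.86) and HOXD of 1.21 (0.631 to 2.35). Their chromosomes as a whole had ratios of 1.46 (chromosome 12) and 1.58 (chromosome 2), both within those intervals. HOXA had a ratio of 0.5 (0.0452 to 3.49) against 1.10 on chromosome 7, which turned to 2 in the higher-scoring 50% of the lists on 1 and 2 regions, and HOXB of 1 (0.186 to 5.37) against 1.45 on chromosome 17. The intervals of all 4 windows overlapped, and the windows were not tested against each other. Regions lie in groups, which makes these intervals too narrow.

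In the full lists, covered length differed more than region number in the 2 dense clusters. HOXD regions covered 5.52 kb in shNT and 10.0 kb in shRBBP4, a ratio of 1.81. HOXC regions covered 5.26 and 9.18 kb, a ratio of 1.74. Over the whole lists the ratio of covered length was 1.51. HOXA covered 0.902 and 0.704 kb and HOXB 0.773 and 0.751 kb. Covered length carries no counting interval, and these ratios have no test. In lists of equal length the ratio was 1.70 in HOXD and 1.33 in HOXC against 1.22 over the whole lists.

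Most bases called in shNT were called again in shRBBP4, while the shRBBP4 regions took in further bases. In HOXD, 4.87 kb were called in both libraries, 88.2% of the shNT bases and 48.7% of the shRBBP4 bases. In HOXC, 3.83 kb were called in both, 72.8% and 41.7%. In HOXA the shares were 53.2% and 68.2%, and in HOXB 52.4% and 53.9%, each over less than 1 kb. Over the whole lists they were 69.7% and 46.1%. The bases called in shNT alone came to 0.650 kb in HOXD and 1.43 kb in HOXC, and those in shRBBP4 alone to 5.13 and 5.35 kb.

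Counted by region, 41 of 48 shNT regions overlapped an shRBBP4 region (85.4%, exact 95% interval 72.2 to 93.9), against 77% of the whole shNT list. Of the 62 shRBBP4 regions, 35 (56.5%, 43.3 to 69.0) met a region of shNT, against 50% of that list. Both whole-list shares lie inside these intervals. HOXD shared 17 of 19 shNT and 13 of 23 shRBBP4 regions, and HOXC 19 of 21 and 18 of 33. Within 1 kb, 46 of 48 shNT regions had a counterpart, against 93.8% of the list, and 54 of 62 shRBBP4 regions had one (87.1%, 76.1 to 94.3), against 74.3%. The last interval lies above the share of the whole list. Regions of 1 stretch share their neighbours, so the interval is too narrow. The 2 shNT regions without one were those named above in HOXA and HOXB. Of the 8 such shRBBP4 regions, 7 were in HOXC and 1 in HOXD.

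Median ranks in the own list were further apart in HOXD and HOXA than in HOXB and HOXC. The median score percentile of HOXD regions was 33.8 in shNT, with a range from 2.11 to 98.5, and 68.8 in shRBBP4, with a range from 4.40 to 99.3. HOXC had medians of 42.0 and 48.9, HOXB of 44.4 and 38.7, and HOXA of 38.6 and 70.2. In lists of equal length, ranked again, the shRBBP4 medians were 54.4 in HOXD, 37.2 in HOXC, 29.8 in HOXB and 56.3 in HOXA. The gap to shNT was then smaller in HOXD and HOXA, larger in HOXB, and turned in HOXC. In the full lists the ranges overlapped in HOXB, HOXC and HOXD, while in HOXA the 2 shRBBP4 regions both ranked above the 4 shNT regions. In lists of equal length the HOXA ranges overlapped too, with the 2 shRBBP4 regions at percentiles 47.1 and 65.5 and shNT reaching 57.2. Above percentile 90 stood 1 of 48 shNT HOX regions, in HOXD, against 10.1% of the list, and 8 of 62 shRBBP4 regions, 5 in HOXD and 3 in HOXC, against 9.75% of the list. The shares were 2.08% (0.0527 to 11.1) and 12.9% (5.74 to 23.9), and both whole-list shares lie inside these intervals.

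HOXD regions were also wider in shRBBP4, with a median of 411 bp against 175 bp in shNT, while whole-list medians were 213 and 210 bp. HOXC had medians of 236 and 204 bp. Rank and width were not separated here, and the part of how finely a stretch is broken into regions was not tested. Joined within their own library across gaps of up to 1 kb, the HOXD regions formed 7 groups in shNT and 5 in shRBBP4, with 2.71 and 4.60 regions per group, against 2.16 and 2.29 over the whole lists.

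**Figure D3:**
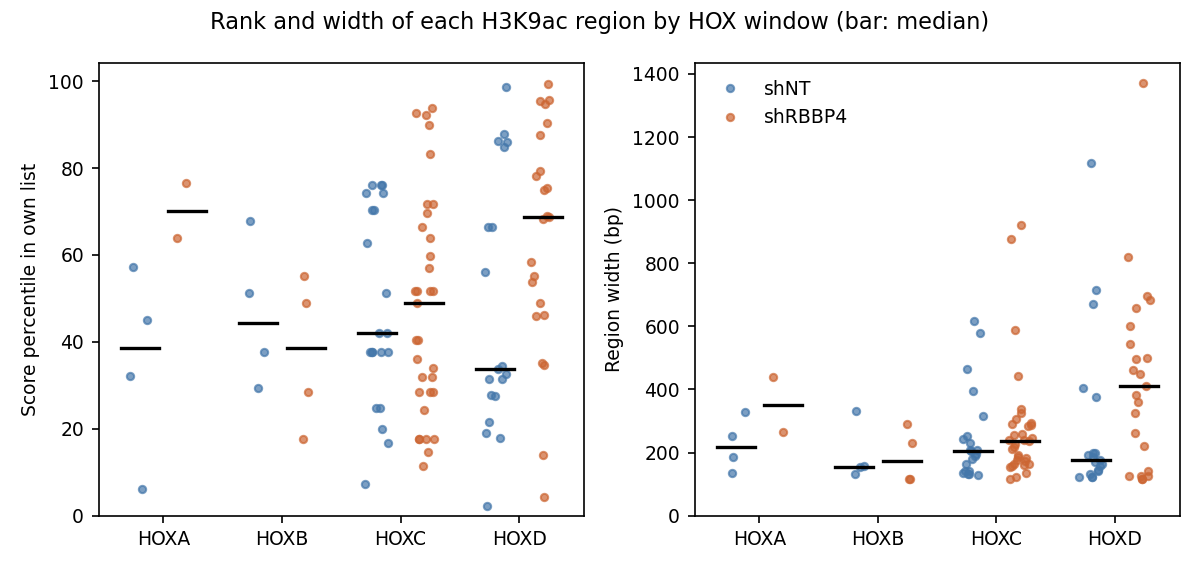
Score percentile in the own list (left) and width in bp (right) of every H3K9ac region by HOX window, blue for shNT and orange for shRBBP4, with horizontal bars at the medians. In HOXD the median percentile is 33.8 in shNT and 68.8 in shRBBP4 and the median width 175 and 411 bp, with overlapping points.

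Counted by stretch, the 4 windows held 21 stretches, of which 14 had regions of both libraries, 2 of shNT alone and 5 of shRBBP4 alone. These are 66.7%, 9.52% and 23.8% of the stretches. Over the whole lists 57.7% of stretches had regions of both, 7.26% of shNT alone and 35% of shRBBP4 alone. Of the 14, 12 had more covered bases in shRBBP4, against 71.9% of such stretches over the whole lists, and 2 had fewer, the HOXA stretch and the one at chr12:54426852-54427563 in HOXC. The highest percentile was higher in shRBBP4 in 12 of 14, against 63.6% over the whole lists. The exceptions were the first HOXB stretch and the same HOXC stretch, where the libraries had 1 region each and no base in common. In the full lists all 4 shared HOXD stretches were higher in shRBBP4 by both measures. In lists of equal length, 7 of the 14 shared stretches had more covered bases in shRBBP4, against 62.9% over the whole lists, and 9 of 14 a higher percentile, against 50.6%. HOXD then had 3 of 4 by each measure. By covered bases, HOXC then had 4 of 7, HOXB 0 of 2 and HOXA 0 of 1. Over the 4 windows together, the higher count of stretches with more covered bases in shRBBP4 was thus absent in lists of equal length. For the highest percentile a higher count remained, at 9 of 14 against 12 of 14 in the full lists. Covered length in HOXC and HOXD stayed higher in shRBBP4, with ratios of 1.33 and 1.70. The HOX stretches were not compared with others of like span, and the part of library depth in these counts was not tested.

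**Figure D4:**
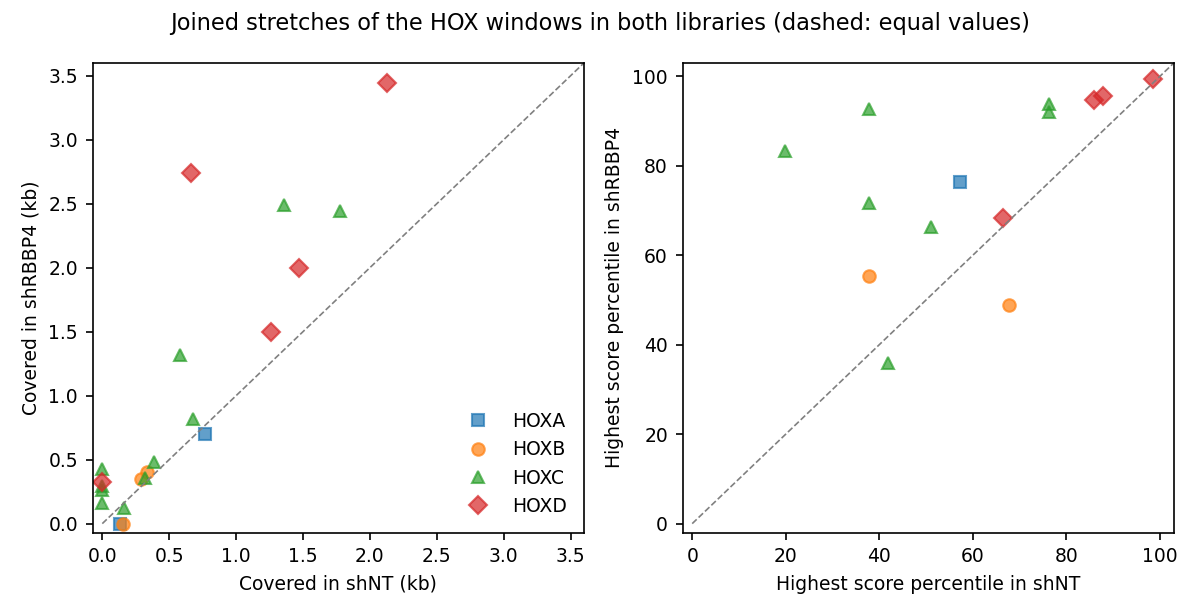
Covered length in kb (left, all 21 stretches) and highest score percentile (right, the 14 stretches with regions of both libraries) in shNT on the horizontal and shRBBP4 on the vertical axis, with a dashed line at equal values. In each panel 12 of the 14 shared stretches lie above the line. The full lists are plotted; in lists of equal length 7 and 9 did so.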

How the data were processed

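H3K9ac ChIP-seq libraries of T98G cells (1 shNT, 1 shRBBP4) were compared through their deposited lists of called regions. A row holds chromosome, start, end, name and score. The score is a value the authors deposited for each region. Its scale is not stated, and it served only to rank regions within a list, ties at their middle rank. Per the file headers, both lists bear the terms macs2 and PE. The submitters' processing notes name SICER, Picard, BWA and bcl2fastq 2.15.0, and hg19 (GRCh37) as the build, with no role for any tool. The caller's threshold is not given in the sources used here, nor is any use of the inputs. Depth is unknown, so more called regions need not mean more acetylation.

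Starts were counted from 1, and covered length was clipped to the windows. Intervals are exact (Clopper-Pearson for shares, conditional for ratios of counts, 95%) and cover counting error only. The functions were tested on simulated lists. Windows, genes and measures were chosen with earlier results of these data known. The rule named, per window and library, the 2 highest-scoring regions, the widest, and the highest-scoring one without overlap. Other regions were named after their values were seen. Alternatives changed the score limit, list length, joining, window edges, overlap rule, ranking and tile length. Percentiles and stretches in lists of equal length were added after seeing the data. Tools were matplotlib 3.10.9, scipy 1.17.1, pandas 2.3.3 and numpy 2.4.6 under Python 3.11.15.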

Additional observations from a re-analysis of the deposited data

How the results depend on the processing

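No paired analysis was possible because there is 1 library per shRNA. Under 5 alternatives (score limit, list length, joining, wider and narrower windows), the interval of the shRBBP4 to shNT ratio held the whole-list ratio in each window and in all 4 together. The ratio itself ran from 0.714 (joined) to 2 (higher-scoring 50%) in HOXD from 1.10 to 1.78 in HOXC, from 0.5 to 2 in HOXA and from 0.905 (joined) to 1.75 in all 4. Keeping the higher-scoring 50% of the lists, which holds fewer regions by design, left 1 HOXA shNT region (0.186 kb) and 2 HOXA shRBBP4 (0.704 kb). In HOXB it left 2 shNT (0.309 kb) and 1 shRBBP4 (0.289 kb), and in HOXC 9 shNT (2.55 kb) and 16 shRBBP4 (5.59 kb). In HOXD it left 8 shNT (3.785 kb) and 16 shRBBP4 regions (7.58 kb). In lists of equal length HOXB had 2 shRBBP4 regions (0.405 kb). Joined within 1 kb, the counts of shNT and shRBBP4 were 2 and 1 in HOXA, 4 and 2 in HOXB, 8 and 11 in HOXC and 7 and 5 in HOXD, and the spans with gaps included were 1.26 kb in HOXB shRBBP4 and 8.61 and 16.7 kb in HOXC. The shared share of shNT and shRBBP4 HOX regions was 41.7% and 32.3% with a reciprocal overlap of 50% (39.6% and 27.0% of the whole lists), and 95.8% and 87.1% within 1 kb. Among the higher-scoring 50% of each list it was 42.9% of shRBBP4 HOX regions, against 51.2% of all shRBBP4 regions kept by that limit. The interval excluded the whole-list share for shRBBP4 within 1 kb and for shNT in lists of equal length (81.3%, 67.4 to 91.1, against 67.2%), and under no other overlap or list rule run; the cause was not tested. With lists of equal length, run after seeing the data, the stretches with more covered bases in shRBBP4 fell to 7 of 14 and the HOXA shRBBP4 median to percentile 56.3. Unknown depth limits every comparison between the libraries.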
